A study of Mus musculus with 10 samples.

Results

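Expression of 10 genes that carry salt and water across the colonic epithelium was followed over the 19 probe sets of the array that are annotated to 1 of these genes alone. The genes were chosen by name, as exchangers, channels and cotransporters of colonic salt and water transport, with earlier results of these data known. They are 10 of 18193 genes and 19 of 34945 probe sets annotated to 1 gene, and each of the 10 genes had at least 1 probe set, with none left out for a low value. The severe group held 3 mice injected with naïve T cells whose colons the labels grade as severely inflamed, and the moderate group held 3 mice given the same cells with moderately inflamed colons. The control group held 4 mice injected with regulatory T cells (Tregs), with colons that were not inflamed. All 10 mice were Rag1-/- on the C57BL/6 strain, were injected at 10 weeks of age and were collected 2 to 3 months later, at 4 to 5 months. Rag1-/- mice cannot form T or B cells, so that the T cells of every group descend from the injected cells and the control mice were not untreated mice. By the study's methods, control mice were given fewer T cells than inflamed mice. The RNA was that of whole distal colon, 1 mouse per array, and fewer cells of a type and less RNA per cell cannot be told apart in such samples.

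The colon takes up most of the salt and water that reach it, and water follows salt. Sodium enters surface colonocytes through sodium/hydrogen exchangers that work beside chloride/bicarbonate exchangers, and in the distal colon also through the epithelial sodium channel (ENaC), which aldosterone stimulates. Chloride secretion runs the other way: a cotransporter loads chloride into the cell from the blood side and a chloride channel releases it into the lumen. Loss of absorption or excess of secretion gives diarrhea, a symptom of this T-cell transfer (TCT) model.

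The labelled tissue was checked against its markers, with each list given as the mean log2 value per array. The pan-epithelial list of 12 genes was at 12.06 to 12.24 in inflamed and 12.00 to 12.09 in control colon, with 5 of its genes higher and 1 lower in inflamed colon at an adjusted p under 0.05 (limma). The list of 6 measured colon identity genes, among them Cdx1, Cdx2 and Hnf4a, was at 11.66 to 12.21 in inflamed and 12.09 to 12.30 in control colon, with 2 genes lower, the goblet cell mucin Muc2 and the carbonic anhydrase Car1. The absorptive colonocyte list of 12 genes was at 9.98 to 11.18 in inflamed and 11.68 to 12.14 in control colon, with 8 genes lower and 1 higher. The T cell list was at 6.53 to 7.46 in inflamed and 5.13 to 5.29 in control colon. The neutrophil list was at 6.87 to 9.16 in inflamed and 4.09 to 4.82 in control colon. For macrophages the means were 8.85 to 10.39 in inflamed and 7.74 to 8.04 in control colon. All 3 list means were higher in every inflamed than in every control colon. Of their measured genes, 7 of 7, 7 of 7 and 6 of 7 were higher and passed the test. Cxcr2, Mmp8 and Mrc1 overlapped between inflamed and control colons. All 8 smooth muscle genes were lower, with a list mean of 9.21 to 10.01 in inflamed and 10.94 to 11.31 in control colon. Of 11 squamous epithelium genes, 10 stayed at or below 6 on all arrays. Fibroblast genes were at 9.06 to 10.51 in inflamed and 10.00 to 10.31 in control colon, with 3 of 6 lower. The list of 6 posterior Hox genes was at 6.28 to 7.01 in inflamed colon, with 2 genes lower. Its mean was 6.37, 7.92, 7.39 and 7.01 in control colons 1 to 4, so that the control colons differed among themselves. The part of the Hox list in the transport genes' values was not tested. The colonocyte, leukocyte and smooth muscle lists moved with the inflamed group, and their part in the transport genes' values was not tested.

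Of the 10 transport genes, 5 were lower in inflamed than in control colon and 0 were higher (limma, 6 inflamed and 4 control colons, two-sided, adjusted p under 0.05 by Benjamini-Hochberg across the 18193 genes). Over all genes, 21.2% were lower and 18.5% were higher by the same test. The 5 were Slc26a2, Slc9a2, Scnn1a, Aqp8 and Cftr, which take part in sulfate, sodium, water and chloride movement. For these 5 and Slc26a3, every inflamed colon lay below every control colon, which held for 17.1% of all genes. No member had every inflamed colon above every control colon, which held for 14.6% of all genes. The median log2 difference of the 10 genes was -0.51, beside 0.03 over all genes tested. Relative to the pan-epithelial mean of each array, 6 members were lower, Slc26a3 in addition (-0.72, adjusted p = 0.0147), and 0 were higher, while 5504 of all genes (30.3%) were lower and 1879 (10.3%) higher on that scale, against 3850 lower and 3372 higher on the deposited one. By probe set, 11 of 19 were lower and 0 were higher, where 19.4% of all probe sets with 1 gene were lower.

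**Figure D1:**
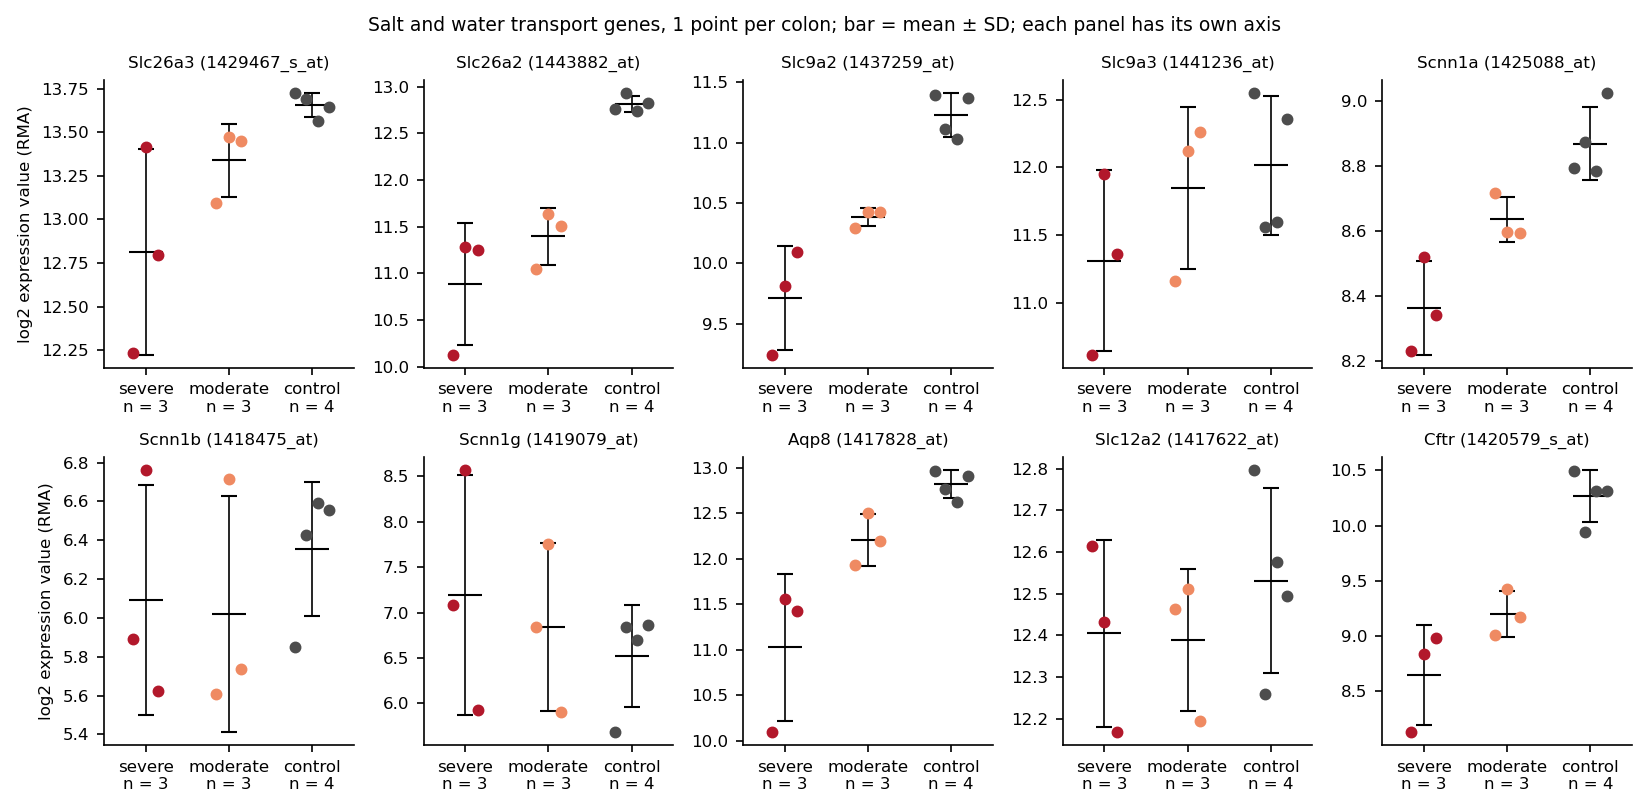
Log2 expression value (RMA) of each of the 10 genes in 3 severely inflamed, 3 moderately inflamed and 4 control colons, 1 point per colon with the mean and SD of each group, each panel on its own axis. Severe and moderate colons lie below all control colons for Slc26a3, Slc26a2, Slc9a2, Scnn1a, Aqp8 and Cftr, and overlap with them for Slc9a3, Scnn1b, Scnn1g and Slc12a2.

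The sequences before the start of 4 of these genes are shown because 3 of them, Slc26a3, Aqp8 and Cftr, lay lower in all inflamed colons, while Scnn1g did not. Windows were read for 6 of the 10 genes from RefSeq (GRCm38.p6), as the 250 bases before the start of 1 transcript, on the + strand. Capitals mark matches, on either strand, to 3 motifs whose letters were chosen after the windows had been read. The first is CAAAGNNCA, a repeat of the kind that HNF4 factors of intestinal epithelium bind. The next is TTTAT, the core that the intestinal CDX factors bind. The last is the TATA box, searched as TATAAA, so that every match to it holds the CDX letters on the other strand.
Slc26a3 (chr12:31437969-31438218): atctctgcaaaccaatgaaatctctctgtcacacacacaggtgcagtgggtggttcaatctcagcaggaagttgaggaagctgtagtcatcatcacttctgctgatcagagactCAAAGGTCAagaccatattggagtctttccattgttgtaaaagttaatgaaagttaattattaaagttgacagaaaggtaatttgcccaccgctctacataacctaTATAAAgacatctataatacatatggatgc
Aqp8 (chr7:123462044-123462293): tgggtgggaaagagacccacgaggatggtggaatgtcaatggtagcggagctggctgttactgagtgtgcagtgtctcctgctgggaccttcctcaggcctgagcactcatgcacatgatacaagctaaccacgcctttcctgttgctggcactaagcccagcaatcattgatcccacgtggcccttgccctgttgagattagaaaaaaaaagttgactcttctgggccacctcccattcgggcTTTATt
Cftr (chr6:18170437-18170686): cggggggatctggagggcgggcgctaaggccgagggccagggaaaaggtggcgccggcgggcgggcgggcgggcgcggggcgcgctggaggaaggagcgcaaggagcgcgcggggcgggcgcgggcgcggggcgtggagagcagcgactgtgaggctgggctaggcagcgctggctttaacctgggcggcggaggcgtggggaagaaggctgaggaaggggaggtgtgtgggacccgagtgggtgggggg
Scnn1g (chr7:121734229-121734478): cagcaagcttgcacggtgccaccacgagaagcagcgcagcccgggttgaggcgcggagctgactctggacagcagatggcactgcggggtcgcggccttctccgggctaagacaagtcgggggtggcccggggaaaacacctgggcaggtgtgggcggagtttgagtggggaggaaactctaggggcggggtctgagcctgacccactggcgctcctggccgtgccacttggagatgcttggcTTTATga
The Slc26a3 window held CAAAGNNCA from -136 to -128 and TATAAA from -30 to -25, counted back from the start site, and these letters stood in 5.49% and 12.4% of all 32851 windows of this length. It was 38.8% G and C, with 1 CpG. The Aqp8 window, 52.4% G and C, held TTTAT from -6 to -2, and the Scnn1g window, 65.2% G and C, held it from -7 to -3. TTTAT stood in 37.3% of all windows. The Cftr window was 76.4% G and C with 30 CpG and matched none of the 3 motifs. The windows read for Slc9a3 and Scnn1b, whose inflamed and control colons overlapped, are not shown and also matched none of the 3.

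Slc26a3 encodes the apical chloride/bicarbonate exchanger of the colon, which is lost in congenital chloride diarrhea in humans. On its brightest probe set, 1429467_s_at, its log2 value was 12.23, 13.41 and 12.80 in severe and 13.09, 13.47 and 13.45 in moderate colons, against 13.72, 13.69, 13.56 and 13.64 in control colons. All 6 inflamed colons were below the lowest control colon, by a small margin in 3 of them. The difference, inflamed minus control, was -0.58 ± 0.22 (SE), with an adjusted p of 0.0513 among the 18193 genes, so that Slc26a3 was not among the 5 genes that passed. It passed when severe colon 1 (-0.41, adjusted p = 0.0323), severe colon 2 (-0.65, 0.0412), moderate colon 2 (-0.66, 0.0336) or moderate colon 3 (-0.65, 0.0352) was left out.

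The other probe sets of Slc26a3 gave larger differences and passed the test. The differences were -0.89 on 1421445_at (adjusted p = 0.0196 over all probe sets, limma), -1.63 on 1427547_a_at (0.00367) and -1.39 on 1453151_at (0.0168). On 1427547_a_at, the values were 8.96, 10.76 and 9.47 in severe and 10.23, 10.87 and 11.16 in moderate colons, against 11.94, 11.75, 11.90 and 11.90 in control colons. In the same fit 1429467_s_at passed as well (0.0494), and 0.298% of probe sets with 1 gene were brighter than it. With the mean over the 4 probe sets as the value of the gene, the difference was -1.12 and the adjusted p was 0.0147.

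Slc26a2, a sulfate transporter of the same family that also exchanges chloride, had the most negative difference of the 10 genes. Its log2 value was 10.13, 11.28 and 11.25 in severe and 11.04, 11.64 and 11.50 in moderate colons, against 12.76, 12.93, 12.74 and 12.83 in control colons. The control colons lay within a narrow band and the highest inflamed colon stood more than 1 log2 unit below it. Slc26a2 was 3.19-fold lower in inflamed colon (-1.68 ± 0.24 SE, adjusted p = 0.000175, limma). Its 3 probe sets fell alike, by 1.68, 1.71 and 1.63 on the log2 scale.

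Of the sodium/hydrogen exchangers, Slc9a2 fell and Slc9a3 did not pass the test. Slc9a2 was at 9.24, 9.81 and 10.09 in severe and 10.29, 10.43 and 10.43 in moderate colons, against 11.39, 11.12, 11.03 and 11.37 in control colons, and no group overlapped with another. It was 2.27-fold lower in inflamed colon (-1.18 ± 0.21 SE, adjusted p = 0.000884, limma).
Slc9a3, the apical exchanger that carries most electroneutral sodium uptake in the gut, was at 10.62, 11.95 and 11.36 in severe and 11.16, 12.12 and 12.26 in moderate colons, against 12.55, 11.56, 11.59 and 12.36 in control colons. Control colons 1 and 4 stood above control colons 2 and 3 by more than 0.7, and the inflamed colons spread over the same range and below it. The difference was -0.44 ± 0.32 (adjusted p = 0.317), and -0.08 on the dimmer probe set 1432771_at (0.763). It was -0.24 without severe colon 1 and -0.26 without control colon 1.

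**Figure D2:**
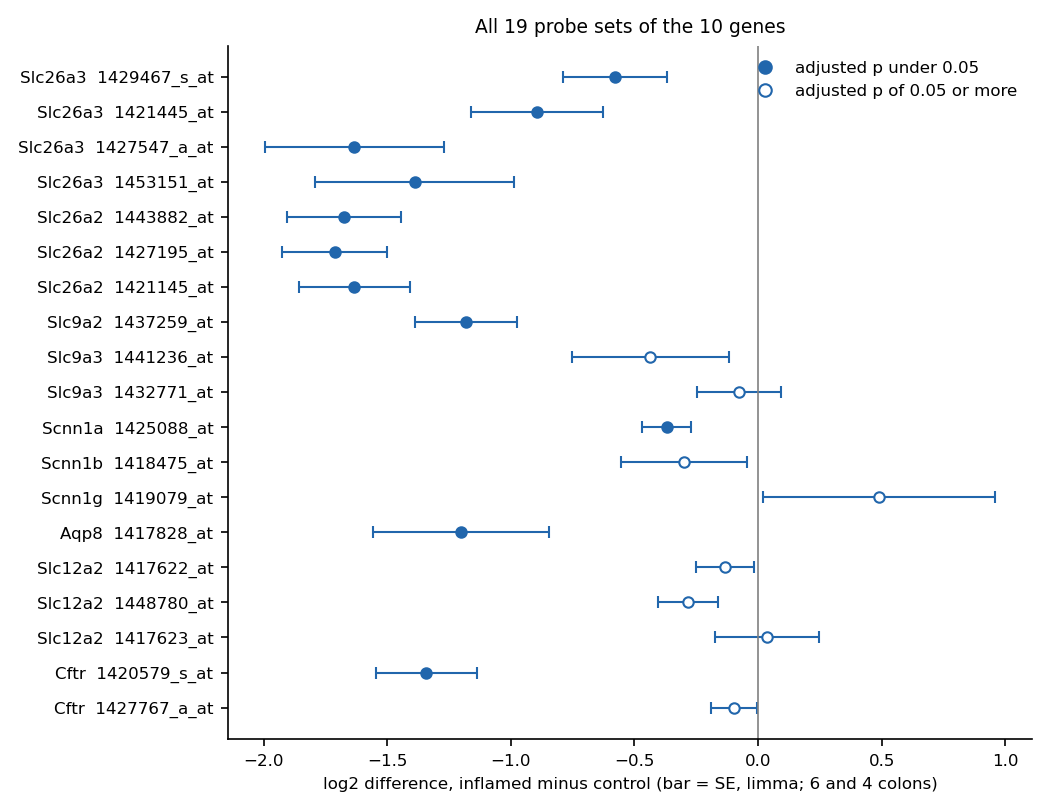
Log2 difference, inflamed minus control, of each of the 19 probe sets (points) with its SE from limma (bars), over 6 inflamed and 4 control colons. Filled points mark the 11 probe sets with an adjusted p under 0.05 over all probe sets, all below 0, which hold every probe set of Slc26a3 and Slc26a2.

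Aqp8, a water channel of surface colonocytes, was at 10.10, 11.56 and 11.43 in severe and 11.94, 12.51 and 12.19 in moderate colons, against 12.97, 12.77, 12.63 and 12.92 in control colons. The severe colons were all below the moderate ones, and severe colon 1 stood far below the rest. Aqp8 was 2.3-fold lower in inflamed colon (-1.20 ± 0.37 SE, adjusted p = 0.0211, limma). Its call was lost without control colon 1 (-1.15, adjusted p = 0.0568) or control colon 4 (-1.17, 0.0514), while without severe colon 1 the difference was -0.90 and the adjusted p 0.00415.

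ENaC is built of 3 subunits, α (Scnn1a), β (Scnn1b) and γ (Scnn1g), of which only the α subunit passed the test. Scnn1a was at 8.23, 8.52 and 8.34 in severe and 8.72, 8.60 and 8.59 in moderate colons, against 8.79, 8.87, 8.78 and 9.02 in control colons. It was lower in every inflamed colon, by a small amount: 1.29-fold, or -0.37 ± 0.10 (SE, adjusted p = 0.0108, limma).
Scnn1b was at 5.89, 6.76 and 5.63 in severe and 5.61, 6.72 and 5.74 in moderate colons, against 5.85, 6.43, 6.59 and 6.55 in control colons. The groups overlapped, severe colon 2 and moderate colon 2 being above every control colon, and the difference of -0.30 ± 0.26 did not pass the test (adjusted p = 0.393). It was -0.47 without control colon 1.
Scnn1g was at 7.08, 8.57 and 5.93 in severe and 6.84, 7.76 and 5.91 in moderate colons, against 5.69, 6.84, 6.70 and 6.87 in control colons. Severe colon 2 and moderate colon 2 were again the highest, while control colon 1 was the lowest of all 10. Its difference of 0.49 ± 0.48 was the only positive one among the 10 genes and did not pass the test (adjusted p = 0.453). It was 0.18 without severe colon 2 and 0.21 without control colon 1. Scnn1g and Scnn1b are neighbours in the RefSeq annotation, with no protein-coding gene between them, and the pair of colons that was highest for either gene was the same.

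Ratios of subunits within an array were compared between 6 inflamed and 4 control colons by an exact permutation test over all 210 splits of the arrays, two-sided, for 3 ratios. Scnn1g relative to Scnn1b was 0.79 higher on the log2 scale in inflamed colon (0.96 ± 0.62 in inflamed and 0.17 ± 0.25 in control, SD), with an exact p of 0.0571, or 0.171 adjusted over the 3 ratios. The control colons spanned -0.16 to 0.41 and 4 of the 6 inflamed colons lay above them, at 1.04 to 1.81. Scnn1g relative to Scnn1a differed by 0.86 (-1.49 ± 1.03 in inflamed and -2.35 ± 0.51 in control, exact p = 0.171, adjusted 0.257) and Scnn1b relative to Scnn1a by 0.07 (-2.44 ± 0.55 in inflamed and -2.51 ± 0.31 in control, exact p = 0.81, adjusted 0.81). None of the 3 differences had a p under 0.05 by this test, before or after adjustment.

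**Figure D3:**
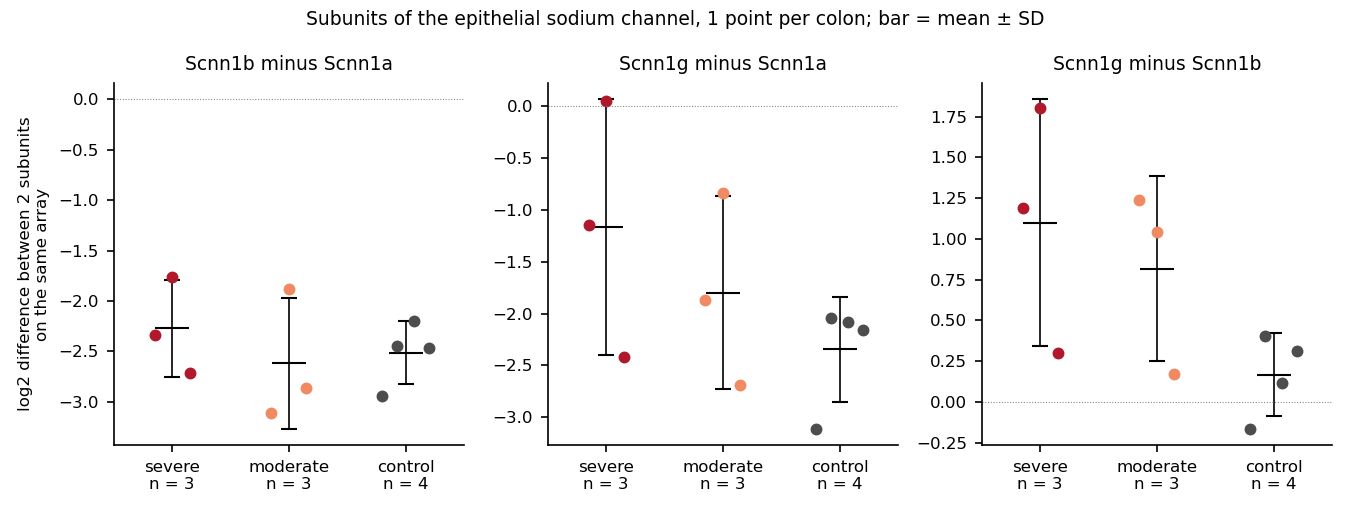
Log2 difference between 2 ENaC subunits on the same array in 3 severe, 3 moderate and 4 control colons, 1 point per colon with the mean and SD of each group. For Scnn1g minus Scnn1b, 4 of 6 inflamed colons lie above the control range of -0.16 to 0.41.

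Of the secretory route, Cftr passed the test and Slc12a2 did not. Cftr, the apical chloride channel that is mutated in cystic fibrosis, was at 8.13, 8.83 and 8.98 in severe and 9.01, 9.42 and 9.17 in moderate colons, against 10.50, 9.94, 10.32 and 10.31 in control colons, and severe, moderate and control colons did not overlap. It was 2.53-fold lower in inflamed colon (-1.34 ± 0.21 SE, adjusted p = 0.000335, limma). Its second probe set, 1427767_a_at, was dim on all arrays (2.21 to 2.60 in inflamed and 2.42 to 2.59 in control colon) and did not pass the test (-0.10, adjusted p = 0.457).
Slc12a2, the basolateral sodium-potassium-chloride cotransporter that supplies chloride for secretion, was at 12.61, 12.43 and 12.17 in severe and 12.46, 12.51 and 12.20 in moderate colons, against 12.80, 12.26, 12.58 and 12.49 in control colons. The groups overlapped throughout, with a difference of -0.13 ± 0.12 (adjusted p = 0.393). It was -0.05 without control colon 1, -0.09 without severe colon 3 and -0.23 without control colon 2. Its other probe sets gave -0.28 (0.0902) and 0.04 (0.913), so that none of the 3 passed the test.

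Set against control by grade, 6 of the 10 genes were lower in severe colon and 3 in moderate colon, and 0 were higher in either (limma, 3 groups with a shared spread). Over all genes, 18.9% were lower in severe and 16.7% in moderate colon. Both comparisons use the same 4 control colons. Slc26a2, Slc9a2 and Cftr passed in both. Slc26a2 differed from control by -1.93 in severe and -1.42 in moderate colon, Slc9a2 by -1.51 in severe and -0.85 in moderate colon, and Cftr by -1.62 in severe and -1.07 in moderate colon. Aqp8 passed in severe colon (-1.79 ± 0.30 SE, adjusted p = 0.000877) and not in moderate colon (-0.61 ± 0.30, 0.154). Without severe colon 1, which enters the shared spread, Aqp8 passed in moderate colon too, at the same difference (adjusted p = 0.00759). Slc26a3 also passed in severe colon (-0.84, 0.012) and not in moderate colon (-0.32, 0.314). Scnn1a likewise passed in severe colon (-0.51, 0.00184) and not in moderate colon (-0.23, 0.0892). Neither of these 2 genes passed in moderate colon with any 1 colon left out. Without severe colon 1, Slc26a3 differed by -0.55 in severe colon (adjusted p = 0.0319). The median difference of the 10 genes was -0.77 in severe and -0.33 in moderate colon, beside 0.02 in severe and 0.03 in moderate colon over all genes.

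Severe and moderate colons were also compared directly. None of the 10 genes passed the test, as was true of all 18193 genes (0% past an adjusted p of 0.05 in limma). In limma, 922 genes (5.07%) had an unadjusted p under 0.05. The paper's figure legend names an unpaired t-test for single genes, inflamed against noninflamed. Run here between the grades, that test also called 0 genes, with 643 unadjusted. The smallest adjusted p among the members was 0.799, and 5 of the 10 had an unadjusted p under 0.05. For Slc9a2, Scnn1a, Aqp8 and Cftr, all 3 severe colons were below all 3 moderate colons, which held for 4.18% of all genes. No member had all severe above all moderate colons, which held for 3.81% of all genes. The difference was -1.18 ± 0.32 (SE) for Aqp8, -0.67 ± 0.19 for Slc9a2, -0.55 ± 0.21 for Cftr and -0.27 ± 0.10 for Scnn1a. For Slc12a2 it was 0.02 ± 0.15.

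**Figure D4:**
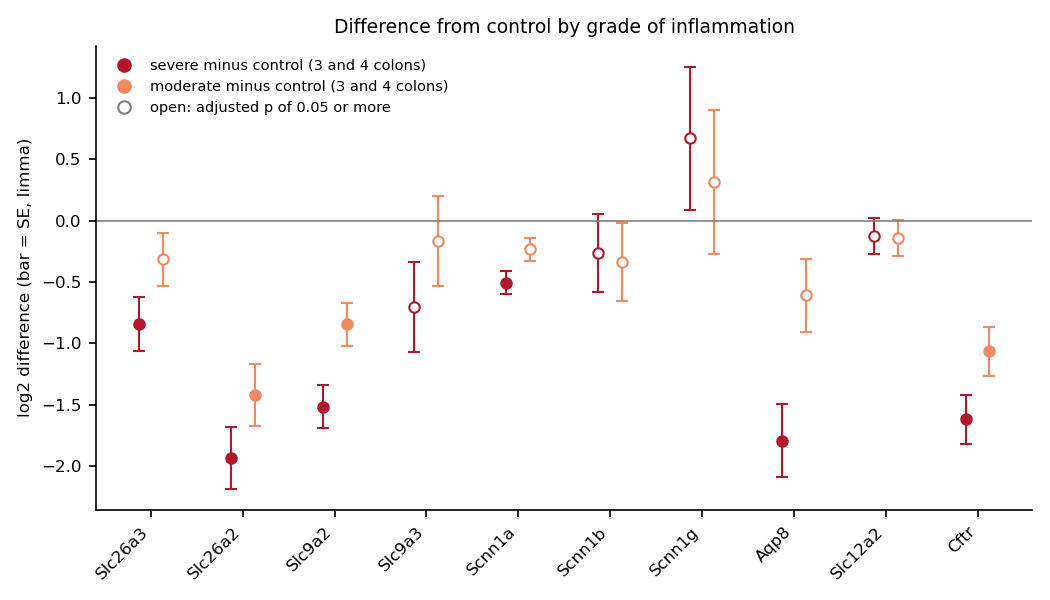
Log2 difference from the 4 control colons of severe (3 colons) and moderate (3 colons) inflammation for each of the 10 genes, with the SE from limma as bars and open points for an adjusted p of 0.05 or more. Severe colon passes the test for 6 genes and moderate colon for 3, Slc26a2, Slc9a2 and Cftr.

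The inflamed colons were not alike. Severe colon 1 was the lowest of the 6 inflamed colons for 7 of the 10 genes, among them all 5 that passed the test, and moderate colon 2 was the highest for 5. Severe colon 1 also had the lowest absorptive colonocyte mean of all colons, 9.98. Its T cell, neutrophil, macrophage and fibroblast means were the highest of all colons, 7.46, 9.16, 10.39 and 10.51. Its pan-epithelial mean of 12.06 was the lowest of the 6 inflamed colons and above 3 of the 4 control colons. Without this colon, 6 of the 10 genes were lower in inflamed colon, Slc26a3 in addition to the 5.

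The remaining machinery of salt and water transport was taken from 9 lists of 57 genes, of which 53 were measured. These lists too were chosen with earlier results of these data known. In inflamed colon 22 of the 53 were lower, 3 were higher and 28 did not pass the test, and their median log2 difference was -0.23, beside 0.03 over all genes, of which 21.2% were lower and 18.5% higher. Relative to the pan-epithelial mean, 29 were lower and 1 was higher, on a scale where 30.3% of all genes were lower and 10.3% higher. Each gene was counted by its brightest probe set, and of the 26 genes with more than 1, the probe sets of 14 differed in their calls.

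The aldosterone and ENaC regulators had the highest count, 6 of 8 lower. Hsd11b2, the enzyme that shields the mineralocorticoid receptor from glucocorticoids, was at 9.14, 10.61 and 9.18 in severe and 9.60, 10.64 and 10.21 in moderate colons, against 10.90, 11.14, 11.45 and 11.18 in control colons (-1.27, adjusted p = 0.00575). Sgk1, the aldosterone-induced kinase that keeps ENaC at the surface, differed by -1.24 (0.000151), with 9.89 to 10.84 in inflamed and 11.34 to 11.93 in control colon. The receptors Nr3c2 (-0.75) and Nr3c1 (-0.40), the steroid-induced Tsc22d3 (-0.71) and the channel-activating protease Prss8 (-0.37) were the other 4. The ubiquitin ligase Nedd4l, which removes ENaC from the surface, and Usp2 did not pass on their brightest probe sets (-0.23 and -0.29). Of the 6 probe sets of Nedd4l, 3 were lower and passed over all probe sets, 1441305_at with a difference of -0.86 (0.000144), 1457374_at with -0.67 (0.0122) and 1437400_at with -0.29 (0.0284). Among the genes that passed, 3 of the 6 probe sets of Nr3c1 and 2 of the 4 of Tsc22d3 did not pass, with differences of -0.33 to 0.13 for Nr3c1 and of -0.09 and -0.08 for Tsc22d3. Severe colon 2 and moderate colon 2 were the highest inflamed colons for Hsd11b2, as they were for Scnn1b and Scnn1g. The same 2 colons were also the highest inflamed ones for Nr3c2, Best2, Atp12a and Gucy2c, so that the pattern was not particular to ENaC genes.

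Of the potassium and chloride channels, 5 of 8 were lower. Kcne3, the partner of the basolateral potassium channel Kcnq1 in chloride secretion, was 2.82-fold lower (adjusted p = 3.65e-05), with 9.49 to 10.47 in inflamed and 11.25 to 11.43 in control colon, and Kcnq1 differed by -0.79. Kcnma1, a large-conductance potassium channel that smooth muscle also expresses, differed by -1.08 (4.71e-05) on its brightest probe set, and 1 of its 5 probe sets did not pass. All 8 smooth muscle markers were lower in the same colons, and their part in the Kcnma1 value was not tested. The chloride channels Ano1 (-0.97) and Best2 (-1.34) were the other 2 that fell. Kcnn4 did not pass on its brightest probe set (-0.23, adjusted p = 0.113). Its other probe set, 1421038_a_at, was lower and passed over all probe sets (-0.75, 0.00326). The anion channel regulator Clca1, a goblet cell product, was at 11.37 to 13.59 in inflamed and 13.94 to 13.97 in control colon and did not pass among the genes (adjusted p = 0.0526), although the ranges did not overlap. Over all probe sets both of its probe sets passed as lower, its brightest, 1416306_at, narrowly (0.0498) and 1459889_at with a difference of -1.98 (0.0144).

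Of the sodium and potassium pump genes, 1 of 5 was lower. Fxyd4, a regulatory subunit of the sodium pump known to respond to aldosterone, was at 8.82, 10.01 and 6.92 in severe and 6.62, 8.58 and 8.21 in moderate colons, against 10.24, 11.46, 11.45 and 10.55 in control colons. Its difference of -2.73 ± 0.58 (SE, adjusted p = 0.00266) was the most negative of the 53 genes, and its inflamed colons spanned more than 3 log2 units. The pump subunit Atp1b1 differed by -0.06 (0.536) and the colonic proton-potassium pump Atp12a by -0.49 (0.245).

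The other aquaporins went both ways, 2 lower and 2 higher of 6. Aqp1, a water channel found in vessels among other sites, was 5.73 to 6.86 in inflamed and 8.60 to 9.13 in control colon, a difference of -2.65 (adjusted p = 3e-06). The endothelial list was at 5.23 to 5.76 in inflamed and 5.78 to 6.01 in control colon, with 3 of 6 genes lower, and its part in the Aqp1 value was not tested. Aqp11 differed by -1.52 on its brightest probe set, and by -0.30 and 0.07 on the other 2, of which the last did not pass. Aqp9, which leukocytes also express, was higher by 0.50 (0.0109) and Aqp3 by 0.29 (0.00411). Both were low on the array's scale (up to 5.31 and 5.28), and none of their other 4 probe sets passed. Aqp4 and Aqp7 did not pass (0.25 and 0.15).

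In 3 further lists 1 gene each was lower. Among acid-base exchangers, 1 of 6 was lower, the sodium-bicarbonate cotransporter Slc4a4, at 7.57 to 9.10 in inflamed and 9.42 to 9.85 in control colon (-1.46, adjusted p = 0.00117), and 1 of its 5 probe sets, the dimmest, did not pass. The scaffolds that hold exchangers at the apical membrane held 1 lower gene of 6, Chp2, an essential partner of sodium/hydrogen exchangers (-0.97, 0.0108), while Slc9a3r1, Slc9a3r2, Pdzk1, Pdzd3 and Ezr lay between -0.17 and 0.14 on their brightest probe sets and did not pass. Of the 6 probe sets of Slc9a3r2, 2 were lower and passed, 1439368_a_at with -0.73 (0.000109) and every inflamed colon below every control colon, and 1439369_x_at with -0.33 (0.0449). Of the kinases that set cotransporter activity, Wnk4 was lower (-1.42, 2.5e-05), and Wnk1, Stk39 and Oxsr1 did not pass (-0.14, -0.10 and 0.16). Another probe set of Stk39, 1419550_a_at, was higher by 0.29 (0.0408). Of the 4 probe sets of the exchanger Slc9a8, 2 were higher and passed, 1426274_at (0.25, 0.0337) and 1431205_at (0.22, 0.048). The brightest probe set of Slc9a8 gave -0.17 and did not pass.

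Among receptors and effectors of secretagogues, 3 of 8 were lower and 1 was higher. Ptger4, a receptor for prostaglandin E, was at 9.55 to 9.90 in inflamed and 10.22 to 10.97 in control colon (-0.88, adjusted p = 0.000245), and Adcy6, an adenylate cyclase, differed by -0.46 (0.00156) and Vipr1 by -0.30 (0.0246), while the other probe set of Vipr1 gave -0.15 and did not pass. P2ry2, a receptor for extracellular ATP and UTP, was higher, at 6.49 to 7.07 in inflamed and 5.95 to 6.28 in control colon (0.73, 0.000425). Gucy2c, the receptor of guanylin, differed by -0.02 (0.946). Both short-chain fatty acid transporters, which couple sodium or proton uptake to that of bacterial products, were lower, with a difference of -0.56 for Slc16a1 (0.0015) and -0.46 for Slc5a8 (0.000889). The second probe set of Slc16a1, far dimmer, gave 0.06 and did not pass.

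**Figure D5:**
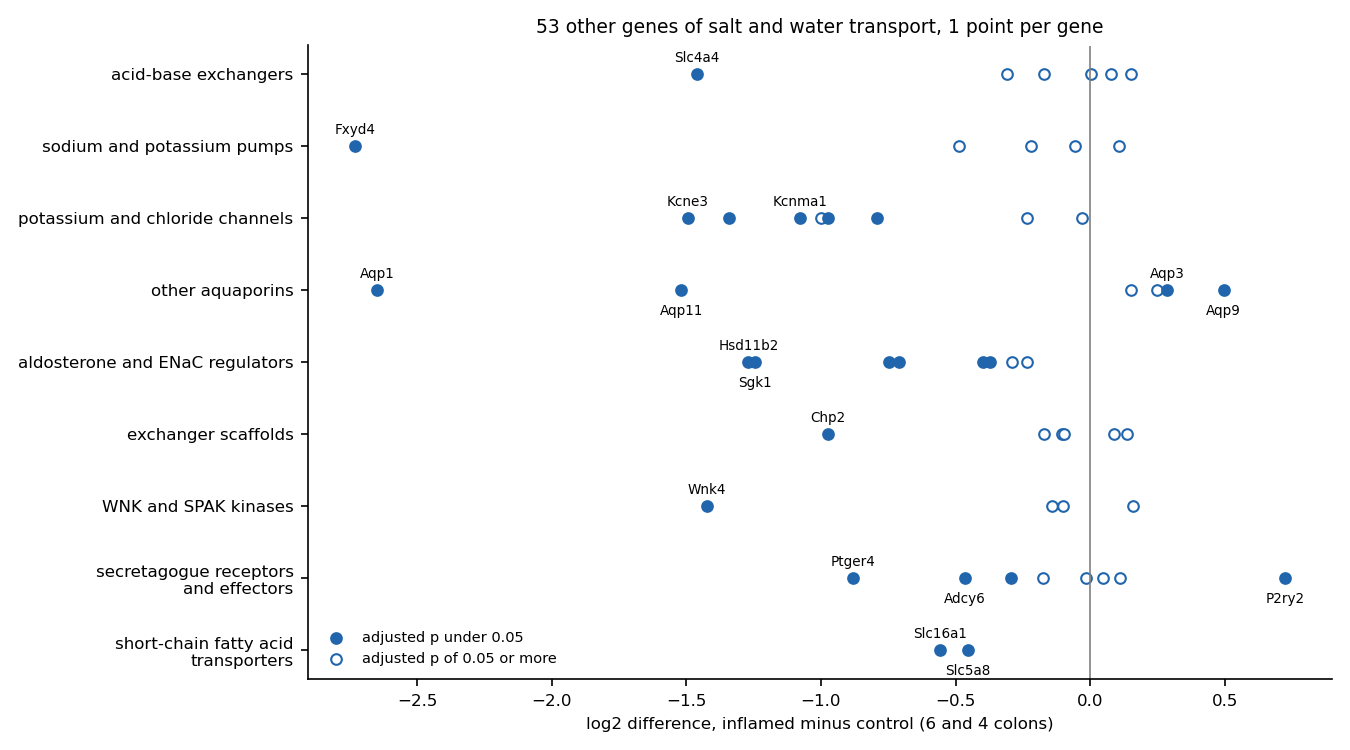
Log2 difference, inflamed minus control (6 and 4 colons), of the 53 other measured genes of salt and water transport in 9 lists, 1 point per gene, filled where the adjusted p is under 0.05. Of these genes 22 were lower and 3 higher, and names are given for up to 2 rises and 2 falls per list among genes whose inflamed and control colons do not overlap.

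For each of the 5 members that passed, the 2 genes whose profile over the 10 colons lay closest were found, as the smallest root mean square distance between log2 profiles centred on their mean. Closest to Slc26a2 were Eci3 (0.18), an enzyme of fatty acid oxidation, and Dgkh (0.21), a diacylglycerol kinase. Closest to Slc9a2 were Bnip5 (0.15) and H3c4 (0.17), and to Cftr were H3c4 (0.17) and Trim2 (0.18), a ubiquitin ligase. H3c4 is 1 of several near-identical histone genes, so that its probe set may read others. Closest to Aqp8 were Ank3 (0.19), the membrane scaffold ankyrin-G, and Akr1c14 (0.26), a steroid dehydrogenase, and to Scnn1a were Ipmk (0.07), an inositol phosphate kinase, and Lgr4 (0.08), a receptor of R-spondins. The profiles share the 10 arrays and the difference between inflamed and control colon.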

How the data were processed

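Log2 expression values per probe set were deposited for 10 distal colons on Affymetrix mouse arrays with 3′IVT labelling. Per the submitters' processing notes, the authors derived them in Expression Console by RMA (background corrected, quantile normalized, summarised by median polish), no version being given. The annotation pairs 34945 of 45101 probe sets with 1 gene, 932 with several and 9160 with none, and 64 are controls. RefSeq held 34741 of the 34945 and 0 symbols changed. A gene took its probe set of highest mean over all arrays, which was a choice for 9010 of 18193 genes. Array medians spanned 5.36 to 5.40 and correlations (Pearson's r) 0.9893 to 0.9958 within inflamed or control arrays and 0.9625 to 0.9834 across. Scan dates and detection calls were not used, and 10 arrays limit the precision. RNA was extracted with Trizol by the labels, with a column kit by the paper.

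Genes were tested by limma 3.58.1 (R 4.3.3), two-sided, at 0.05 after Benjamini-Hochberg adjustment across all genes, or across all probe sets for single probe sets. A 2-group fit served inflamed against control, and a 3-group fit the grades. ENaC ratios were tested by exact permutation. In simulated data with 18193 genes, inflamed against control found 67.2% of genes set to change by 0.5 on the log2 scale, 91.0% by 1 and 100% by 2, beside 12 false calls. There 67, 67 and 66 genes were changed, far fewer than the 3850 lower and 3372 higher in these data. Noise was drawn from the spread within the 3 groups, so that these shares need not hold for the real test. Alternatives covered the gene's value, the probe sets, dim genes, array scaling and the pan-epithelial mean as reference. They also covered variance and array weights, the unpaired t-test of the paper's figure legend, the design, a replicate block and each array left out. For single members by grade, they were added after seeing the data. Members and lists were chosen with earlier results of these data known. From each list of other transport genes the rule names the 2 largest rises and 2 largest falls past the test without overlap, and further genes were named after their values were seen. Promoter windows came from RefSeq (GRCm38.p6). Figures used matplotlib 3.10.9 and Python 3.11.15.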

Additional observations from a re-analysis of the deposited data

Results flagged for a closer look

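In 3 of 78 groups of 4 or 6 values examined (39 genes, probe sets or ratios, in inflamed and in control colons), the highest or lowest colon stood apart from the others by Dixon's criterion, which chance alone meets in about 1 in 20 groups. Scnn1g in control colon 1 was at 5.69, with the next control colon at 6.70. On the same array Scnn1g minus Scnn1a was -3.11, with the next control colon at -2.16. Adcy6 in severe colon 1 was at 9.49, with the next inflamed colon at 9.79.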

How the results depend on the processing

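The count of 5 members lower in inflamed colon became 3 with a replicate block in limma. Scnn1a (-0.32, adjusted p = 0.0589) and Aqp8 (-1.17, 0.0639) no longer passed. Under every other setting run the count stayed within 1.5 times. Only the control group has a colon with the number 4, so the block fits control colon 4 by itself. The differences with the block are therefore those without that colon. The block also changes the estimate of the spread, and its part in the 2 lost calls was not tested. Of 9 pairs of colons with the same number, r of their deviations from the group means was -0.08 to 0.29, over 0.1 in 2. These 2 were severe and moderate colon 1 (0.29) and severe and moderate colon 2 (0.25). Pairs with different numbers were at -0.31 to 0.17, with severe colon 1 and moderate colon 2 at -0.26 and severe colon 2 and moderate colon 1 at -0.31. Deviations within a group add up to 0, so that these r values depend on each other. The labels name the number only as a biological replicate, and whether such colons share anything else was not tested. With the replicate block, limma gave Scnn1g minus Scnn1a a difference of 0.92 (adjusted p = 0.0484) and Scnn1g minus Scnn1b 0.84 (0.0066). These ratio differences too are those without control colon 4. The exact permutation test over all colons gave adjusted p = 0.257 for Scnn1g minus Scnn1a and 0.171 for Scnn1g minus Scnn1b. The limma and exact p-values come from unlike tests on different colons, so the lower limma values do not establish a change in either ratio. The unpaired t-test called 7 of 19 member probe sets, against 11 in limma. Leaving out each colon in turn gave 4 to 6 members lower in inflamed colon, 6 in severe, 3 to 4 in moderate and 0 between severe and moderate, 8 to 12 member probe sets, and 24 to 27 of the other transport genes. Without each colon in turn, Scnn1b minus Scnn1a ran from -0.073 to 0.20, turning negative without control colon 1 (-0.073), severe colon 2 (-0.067) or moderate colon 2 (-0.043), Scnn1g minus Scnn1a ran from 0.55 to 1.10 and Scnn1g minus Scnn1b from 0.62 to 0.95. In comparisons by grade, Scnn1g turned to -0.019 in severe colon without severe colon 2 (range -0.019 to 1.30) and to -0.15 in moderate colon without moderate colon 2 (-0.15 to 0.78), and Slc9a3 in moderate colon to 0.01 without control colon 1 and 0.18 without moderate colon 1 (-0.37 to 0.18). The test of severe against moderate called 5 genes without severe colon 2, 20 without moderate colon 2 and 1 without moderate colon 1, no member among them.

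Slc26a3 passed in inflamed colon under 10 of 22 settings, among them the mean over probe sets (-1.12), the 3-group design (-0.58, adjusted p = 0.0292) and array weights (-0.55, 0.0265). Aqp8 also lost its call under the unpaired t-test (adjusted p = 0.0618), and Slc26a3 in severe colon did (0.088). Relative to the pan-epithelial mean of each array, the median over all genes moved to -0.11 from 0.03 and the share of higher calls to 25.5% from 46.7% (52.1% with arrays centred on the median), and in moderate colon Scnn1a passed (-0.36, adjusted p = 0.00852). Cftr has no probe set of the plain kind, and Scnn1b is left out with the dim genes, so that these settings give no value for them.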
